A study of Mus musculus with 6 samples.

Results

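The Slc25 genes encode the mitochondrial carriers, membrane proteins that move metabolites between the cytosol and the mitochondrial matrix. Their members were taken by name, as every row of the deposited table whose symbol begins with Slc25a and a digit. This gave 48 of 55487 rows, 47 of them protein-coding genes and 1 the pseudogene Slc25a5-ps. They were compared in mouse bone marrow-derived dendritic cells (BMDC, cells grown out of marrow in culture) labelled as given NanoCa, the calcium-bearing lipid nanoparticle of the series title, and in BMDC labelled Mock, with no treatment. The labels give female mice of 4 to 8 weeks and 1 batch date for all samples, and no strain, genotype change or exposure time is named in them. The NanoCa dose is 100 μM per the labels' protocols, a text that stands on the Mock samples as well. A column name given in the Mock descriptions also contains NanoCa, so whether Mock cells met a particle is not settled here, and the treatment label was followed.

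Carriers share a fold built from repeats of a pair of membrane helices, and most sit in the inner mitochondrial membrane. By exchanging ADP for ATP, phosphate, citrate, malate, aspartate, glutamate, fatty acyl groups, cofactors and iron, they tie respiration, biosynthesis and the cytosolic redox state together. Several carry calcium-binding EF-hand domains that face the intermembrane space. In myeloid cells, citrate export and the malate-aspartate shuttle are known for their links to inflammatory metabolism.

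The table lists FPKM, reads scaled to gene length and to the reads of the library. Each group has 3 columns, but the third equals 1.0011 (NanoCa) or 1.001876 (Mock) times the mean of the other two, so the values used come from 2 libraries per group. Library totals read from the FPKM steps came to 23991472 and 22793565 for the NanoCa libraries and to 31131990 and 26975437 for Mock. The labels do not say whether libraries came from separate mice or cultures, so each p-value reflects the variation among these libraries alone, and that variation may be technical. The libraries go against the label of female mice in part. Xist, the RNA of the inactive X chromosome, had 1 read in each Mock library against 14413 and 13639 in the NanoCa libraries, and reads of the Y-linked Kdm5d, Eif2s3y, Uty and Ddx3y were found in all 4 libraries, in NanoCa at 29.4% to 40.4% of Mock. The groups compared below thus differ in sex-linked transcripts too. Both libraries of a group share this difference, so its part in each result was not tested and cannot be told apart from that of the treatment label. Of the dendritic cell markers, Itgax (72.7 to 119 FPKM), H2-Ab1 and Cd74 were high in all 4 libraries, while Flt3 and Zbtb46, which define dendritic cells more narrowly, were at most at 0.635 FPKM. Macrophage and monocyte genes were abundant, for example Adgre1 at 415 and 422 FPKM in NanoCa and 219 and 214 in Mock. The summed level of the 10 macrophage and monocyte markers was 7840 and 8135 FPKM in NanoCa and 25641 and 25930 in Mock, of which Lyz2 made the most. The 10 dendritic markers summed to 1327 and 1413 FPKM in NanoCa and to 2143 and 2127 in Mock, and the 10 neutrophil markers to 50.8 and 63.1 FPKM against 228 and 416. The 8 mast cell and basophil markers summed to 5.14 and 4.99 FPKM against 15.9 and 25.7, and the 6 stromal and endothelial markers to 28.6 and 28.5 against 5.87 and 6.25. The 8 lymphocyte markers summed to at most 0.223 FPKM, with Ncr1 at 0. In bulk RNA, fewer cells of a type and less RNA per cell cannot be told apart.

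The promoters of 5 members are shown because these genes carry the main contrasts below: Slc25a22, the largest rise, Slc25a13, the largest fall on the scale tested, its close relative Slc25a12, which did not pass the test, and the ADP/ATP carrier pair Slc25a5 and Slc25a4. Each runs from 250 bases before to 50 after the first listed start in RefSeq (GRCm38.p6, not the GRCm39 build of the deposited values), 5′ to 3′ on the gene's strand. Capitals mark matches to any of 7 motifs searched on both strands: ACGTG (core of the hypoxia-inducible factor site), TGATGNAA (ATF4), GAAANNGAA (interferon-stimulated response element), GCGCANGCG (NRF1), CCGGAAGT (ETS), GGGANTTTC (NF-kappaB) and TATAA (TATA box, added after the sequences had been read).
Slc25a22 promoter, GRCm38.p6 chr7:141437825-141438124, minus strand: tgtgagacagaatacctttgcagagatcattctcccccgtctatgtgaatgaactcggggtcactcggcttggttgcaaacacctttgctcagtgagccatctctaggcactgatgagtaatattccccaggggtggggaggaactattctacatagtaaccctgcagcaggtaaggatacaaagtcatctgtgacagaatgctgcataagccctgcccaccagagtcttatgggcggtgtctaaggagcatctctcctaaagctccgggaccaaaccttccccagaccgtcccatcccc
Slc25a13 promoter, GRCm38.p6 chr6:6217124-6217423, minus strand: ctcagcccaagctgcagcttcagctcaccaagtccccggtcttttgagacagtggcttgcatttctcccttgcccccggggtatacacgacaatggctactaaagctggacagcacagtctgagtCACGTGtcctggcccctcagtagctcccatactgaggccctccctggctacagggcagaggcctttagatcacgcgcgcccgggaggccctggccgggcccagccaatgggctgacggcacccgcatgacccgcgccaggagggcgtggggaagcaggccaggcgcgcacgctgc
Slc25a12 promoter, GRCm38.p6 chr2:71367706-71368005, minus strand: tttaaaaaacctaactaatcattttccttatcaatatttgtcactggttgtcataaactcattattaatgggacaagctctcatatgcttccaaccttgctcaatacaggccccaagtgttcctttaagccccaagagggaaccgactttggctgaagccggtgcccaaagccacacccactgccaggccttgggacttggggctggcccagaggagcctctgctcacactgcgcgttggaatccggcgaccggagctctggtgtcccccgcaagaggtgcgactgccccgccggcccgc
Slc25a5 promoter, GRCm38.p6 chrX:36795347-36795646, plus strand: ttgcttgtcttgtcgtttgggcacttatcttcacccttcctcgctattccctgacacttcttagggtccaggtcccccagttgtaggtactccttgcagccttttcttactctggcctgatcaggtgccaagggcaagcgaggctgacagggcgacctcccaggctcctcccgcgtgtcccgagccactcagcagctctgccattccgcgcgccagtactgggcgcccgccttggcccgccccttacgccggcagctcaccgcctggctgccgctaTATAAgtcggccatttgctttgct
Slc25a4 promoter, GRCm38.p6 chr8:46211013-46211312, minus strand: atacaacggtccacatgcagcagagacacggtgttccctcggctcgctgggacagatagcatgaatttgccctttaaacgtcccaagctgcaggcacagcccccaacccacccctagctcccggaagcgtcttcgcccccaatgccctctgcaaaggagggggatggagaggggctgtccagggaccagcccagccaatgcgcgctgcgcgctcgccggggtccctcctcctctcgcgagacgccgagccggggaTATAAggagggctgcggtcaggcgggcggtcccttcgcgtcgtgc

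The promoter of Slc25a13 holds ACGTG at -125 and -124, which is 1 palindrome read on both strands. Those of Slc25a5 and Slc25a4 hold TATAA after the listed start, at bases 27 and 6 counted with the start as base 1. No motif of the 7 was found in the windows of Slc25a22 and Slc25a12. The table held promoters for 36 members, and ACGTG occurred in 10 of them (27.8%) against 19.7% of 27025 promoters of all genes. GAAANNGAA occurred in 3 (8.33%, all genes 8.57%), GCGCANGCG in 2 (5.56%, all genes 6.47%), CCGGAAGT in 1 (2.78%, all genes 4.00%) and TATAA in 4 (11.1%, all genes 25.5%). TGATGNAA and GGGANTTTC were in none of the 36, and in 4.06% and 1.15% of all promoters. These matches describe letters in the windows and nothing about binding.

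Of the 48 members, 34 had a mean FPKM of at least 1 over the 4 libraries and were tested, 9 had reads but fell under that filter, and 5 (Slc25a21, Slc25a41, Slc25a48, Slc25a54 and the pseudogene) were at 0 in every library. The test was limma on log2(FPKM + 1), fitted to 11116 genes with Benjamini-Hochberg adjustment over all of them and a threshold of 0.05. Fold changes are NanoCa minus Mock on that scale, where changes of low genes come out too small. Of the 34, 6 were higher in NanoCa, 17 lower, and 11 did not pass, where 21.7% of all genes tested were called higher and 49.7% lower. After median-of-ratios scaling there were 11 higher and 11 lower members (all genes 32.9% and 32.8%), and after quantile normalization 10 and 13 (all genes 29.7% and 36.3%). The median log2 fold change of the tested members was -0.16, close to -0.17 for all genes. Only Slc25a22 passed with a change of at least 2-fold on this scale, against 10.8% of all genes. The 2 groups did not overlap for 26 of the 34 members (all genes 86.3%). The counts of calls in each direction lie near the background of all genes under each of these scalings. The count at 2-fold depends on the constant added to FPKM. With 0.1 in place of 1, Slc25a13 (-1.11), Slc25a15 (-1.01) and Slc25a23 (-1.51) also passed at that size. The share of all genes at that size with 0.1 was not computed, so these members have no background.

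**Figure D1:**
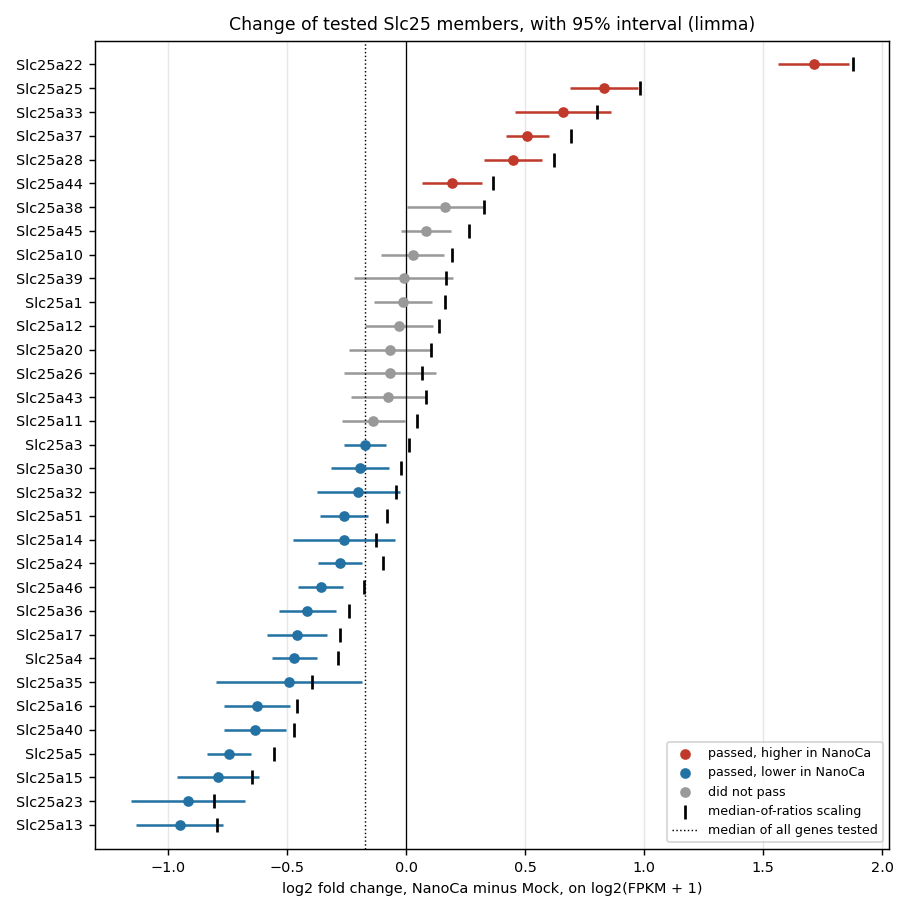
Log2 fold change (NanoCa minus Mock, on log2(FPKM + 1)) of the 34 tested members, 1 not drawn, with its 95% interval from limma, coloured by call, with the value after median-of-ratios scaling as a black tick and the median of all genes as a dotted line. Slc25a22 stands apart at 1.71, 4 more members lie above 0.4, and Slc25a13 and Slc25a23 are lowest at -0.95 and -0.92. Slc25a23 was tested only through its level in Mock.

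The glutamate and aspartate carriers moved in different directions. Slc25a22 (ENSMUSG00000019082, chromosome 7), the main mitochondrial glutamate carrier, stood at 16.6 and 18.4 FPKM in NanoCa and at 4.67 and 4.63 in Mock. Both NanoCa libraries were far above both Mock libraries, on 1122 and 1181 reads against 409 and 351. The mean went from 4.65 ± 0.0316 to 17.5 ± 1.27 FPKM (SD, n = 2), a log2 fold change of 1.71 (SE 0.061, limma adjusted p = 4.17e-06). Its relative Slc25a18, the second glutamate carrier, had 3 reads in NanoCa replicate 2 and 0 in the other libraries.

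Slc25a13 (ENSMUSG00000015112, chromosome 6), or citrin, is an aspartate-glutamate carrier of the malate-aspartate shuttle. It stood at 3.35 and 3.92 FPKM in NanoCa and at 7.90 and 8.02 in Mock, and the groups did not overlap. The mean was 45.7% of Mock (difference -0.95 in log2 units, SE 0.074, adjusted p = 8.39e-05). The other aspartate-glutamate carrier, Slc25a12 (aralar; protein identity to citrin 76.5%), was at 8.61 and 7.98 FPKM in NanoCa and at 8.72 and 8.28 in Mock. Its groups overlapped and it did not pass the test (-0.03, 95% interval -0.18 to 0.11, adjusted p = 0.640). The level of Slc25a12 was thus 2.57 and 2.03 times that of Slc25a13 in NanoCa, and 1.10 and 1.03 times in Mock. The difference between the changes of these relatives was not tested.

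The genes for ADP/ATP and phosphate exchange held most of the family's transcripts. All 6 tested members of this role passed, 5 lower and 1 higher (all genes 49.7% lower and 21.7% higher). Slc25a5 (ENSMUSG00000016319, X chromosome), the ADP/ATP carrier ANT2 of dividing cells, had the highest level of the family and stood at 217 and 223 FPKM in NanoCa and at 368 and 370 in Mock. The groups were far apart, with the mean at 59.6% of Mock (-0.74 on the log2 scale, SE 0.038, adjusted p = 1.51e-05). Slc25a4 (chromosome 8), the ADP/ATP carrier ANT1 of heart and muscle and 89.6% identical to Slc25a5 in protein, was at 43.5 and 42.1 FPKM in NanoCa and at 59.3 and 60.0 in Mock (-0.47, SE 0.038, adjusted p = 0.000102). Both isoforms were lower in both NanoCa libraries, and the ratio of Slc25a5 to Slc25a4 was 4.99 and 5.31 in NanoCa and 6.22 and 6.17 in Mock. Their coding sequences are 77.8% identical, and how reads were assigned between them is not given in the sources used here. Slc25a3 (chromosome 10), the phosphate carrier that also brings in copper, was at 209 and 212 FPKM in NanoCa and at 236 and 238 in Mock (-0.17, SE 0.036, adjusted p = 0.0054). That difference is close to the median of all genes (-0.17), and with median-of-ratios scaling it turned to 0.01 and did not pass. Slc25a5 and Slc25a3 stood level in NanoCa, at ratios of 1.04 and 1.06, and at 1.56 and 1.55 in Mock.

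Summed over all members, the family stood at 864 and 884 FPKM in NanoCa and at 1079 and 1091 in Mock. Of the difference of means of -211 FPKM, Slc25a5 made -149 and Slc25a3 -27.1. Slc25a5 was 25.1% and 25.3% of the family's sum in NanoCa and 34.1% and 33.9% in Mock. Without Slc25a5, Slc25a3 and Slc25a4, the rest summed to 395 and 407 FPKM in NanoCa and to 415 and 422 in Mock.

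**Figure D2:**
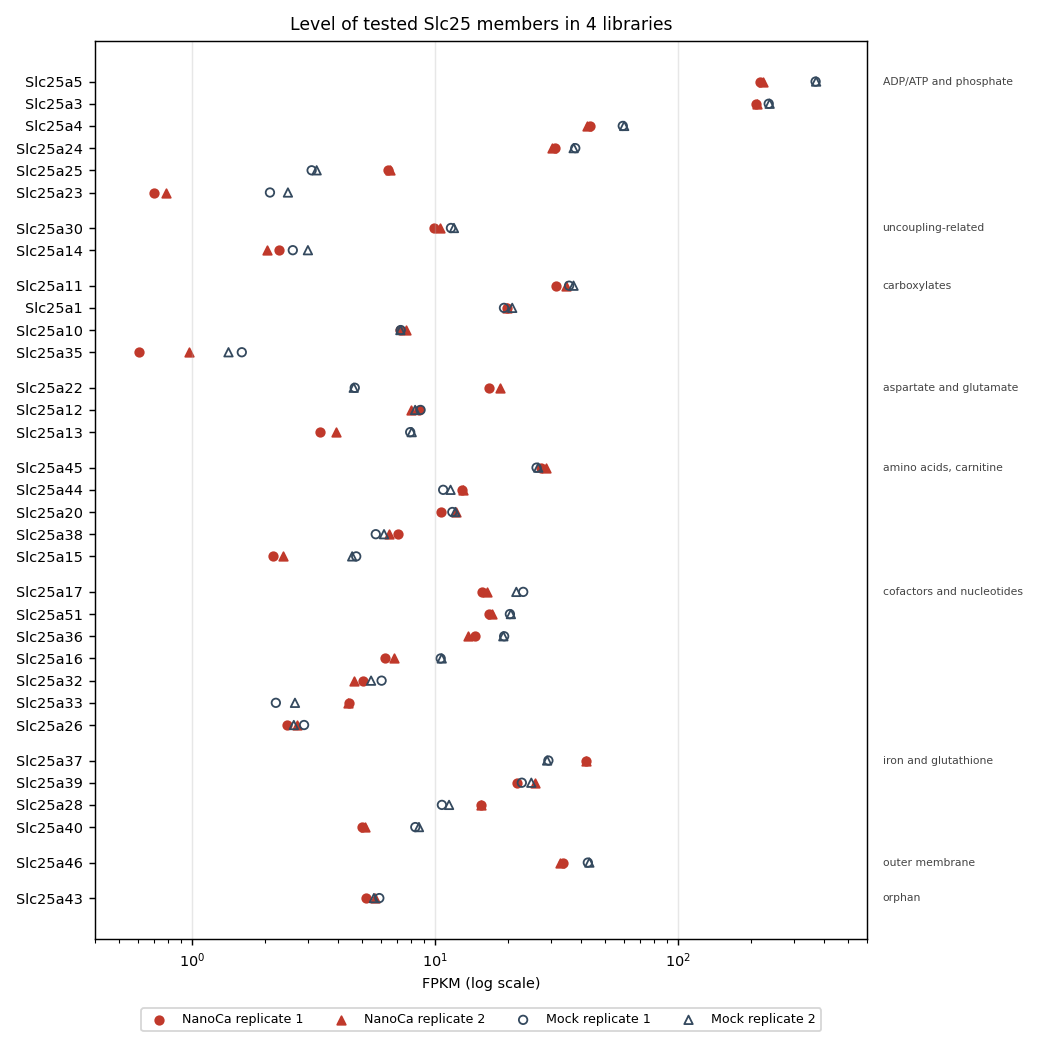
FPKM (log axis) of the 34 tested members, 1 not drawn, in each of the 4 libraries, grouped by role and ordered by mean level within a role, with NanoCa filled, Mock open, and replicates told apart by shape. Slc25a5 and Slc25a3 lie between 209 and 370 FPKM, Slc25a35 and Slc25a23 are lowest, and replicates of a group lie close together beside the gaps of Slc25a22, Slc25a13 and Slc25a23.

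The calcium-regulated ATP-Mg/phosphate carriers, which adjust the adenine nucleotide content of the matrix, divided. Slc25a25 (ENSMUSG00000026819, chromosome 2) was at 6.38 and 6.50 FPKM in NanoCa and at 3.11 and 3.26 in Mock, 2.03 times as high (0.83 on the log2 scale, SE 0.059, adjusted p = 5.69e-05). Slc25a23 (ENSMUSG00000046329, chromosome 17) was at 0.694 and 0.783 FPKM in NanoCa and at 2.09 and 2.48 in Mock, on 56 and 60 reads against 219 and 225. Its mean was 32.3% of Mock, the lowest share among the tested members, and the log2 fold change with the pseudocount was -0.92 (SE 0.098, adjusted p = 0.000309). Both NanoCa values lie under the filter level of 1 FPKM, so Slc25a23 was tested only through its level in Mock. Slc25a24, the most abundant of the 3, was lower at 31.1 and 30.4 FPKM against 37.8 and 37.2 (-0.28), a call that was lost with median-of-ratios scaling (-0.10). The ratio of Slc25a25 to Slc25a23 was 9.19 and 8.31 in NanoCa and 1.48 and 1.31 in Mock. Together with Slc25a12 and Slc25a13 these are the members known for calcium-binding EF-hand domains, a grouping made after the values were seen. Of these 5, 1 was higher, 3 were lower and 1 did not pass (all genes 21.7% higher and 49.7% lower). Slc25a41, which lacks those domains and is the next protein-coding gene to Slc25a23 on chromosome 17, was at 0. Slc25a31, the ADP/ATP carrier of germ cells, had 7 reads in NanoCa and 10 in Mock.

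The uncoupling-protein relatives were lower where they were tested. Slc25a14 (UCP5, X chromosome) was at 2.29 and 2.04 FPKM in NanoCa and at 2.60 and 3.00 in Mock (-0.26, SE 0.088, adjusted p = 0.035). Slc25a30 (KMCP1), with 70.9% of residues identical to it, was at 9.91 and 10.5 FPKM against 11.6 and 12.0 (-0.19, SE 0.050, adjusted p = 0.0137). Both calls were lost with median-of-ratios scaling (-0.13 and -0.02) and with quantile normalization (-0.03 and -0.04). That of Slc25a14 was also lost without NanoCa replicate 2 (-0.21) or Mock replicate 2 (-0.19), and that of Slc25a30 without NanoCa replicate 1 (-0.16) or Mock replicate 2 (-0.18). Slc25a27 (UCP4, known from neurons) lay under the filter with 4 and 5 reads in the NanoCa libraries against 47 and 63, a read rate of 10.2% of Mock (exact 95% interval of the ratio 0.0453 to 0.20, counting error only). When no filter was set it passed as lower (log2 fold change -0.64, adjusted p = 0.0139), so its share of Mock was lower than that of any tested member.

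**Figure D3:**
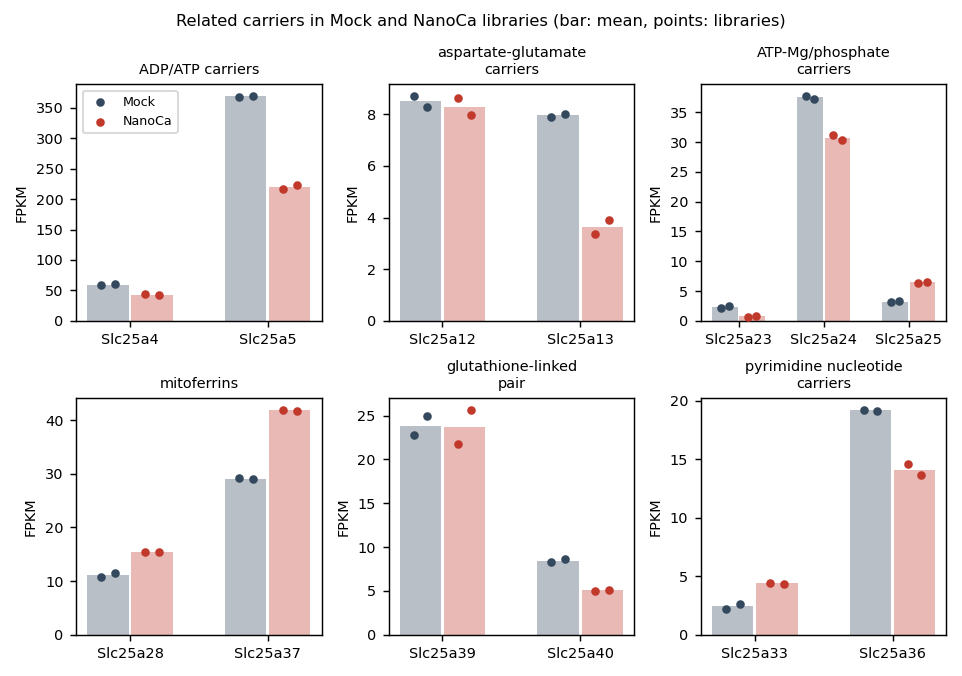
FPKM of 6 groups of related carriers in Mock (grey) and NanoCa (red), with a bar for the mean and a point for each library (n = 2 per group). Both ADP/ATP carriers are lower in NanoCa, the points of Slc25a12 and of Slc25a39 overlap while Slc25a13 and Slc25a40 are lower, both mitoferrins are higher, Slc25a25 and Slc25a33 are higher, and Slc25a23, Slc25a36 and Slc25a24 are lower, the last not past the test with median-of-ratios scaling.

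Iron and glutathione carriers gave 2 rises, 1 fall and 1 gene that did not pass (all genes 21.7% higher and 49.7% lower). Slc25a37 (mitoferrin 1, ENSMUSG00000034248, chromosome 14), which brings iron into mitochondria for heme and iron-sulfur clusters, stood at 42.0 and 41.7 FPKM in NanoCa and at 29.3 and 28.9 in Mock (0.51 on the log2 scale, SE 0.037, adjusted p = 6.48e-05). Mitoferrin 2, Slc25a28, was at 15.4 in both NanoCa libraries and at 10.7 and 11.4 FPKM in Mock (0.45, SE 0.050, adjusted p = 0.000379). The 2 mitoferrins kept a steady ratio of 2.72 and 2.70 in NanoCa and 2.74 and 2.53 in Mock. Slc25a37 is best known from red cell precursors. Here the erythroid markers Alas2, Hba-a2 and Slc4a1 were at 0 in every library, and the 10 markers of the list summed to 0.321 and 0.416 FPKM in NanoCa and to 1.11 and 1.83 in Mock. Most of that sum was Gata1, which mast cells and basophils also express, and the part of red cell precursors in the level of Slc25a37 was not tested. Slc25a39, required for mitochondrial glutathione uptake, was at 21.7 and 25.7 FPKM in NanoCa and at 22.8 and 24.9 in Mock, with overlapping groups (-0.01, 95% interval -0.22 to 0.20, adjusted p = 0.911). Its relative Slc25a40 (chromosome 5) was at 5.02 and 5.14 FPKM in NanoCa and at 8.30 and 8.59 in Mock, or 60.1% of Mock (-0.64, SE 0.053, adjusted p = 0.00011). The Slc25a39 to Slc25a40 ratio was 4.33 and 5.00 in NanoCa and 2.74 and 2.90 in Mock.

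Carriers of cofactors and nucleotides fell in 5 of 8 tested cases and rose in 1 (all genes 49.7% lower and 21.7% higher). Slc25a33 (ENSMUSG00000028982, chromosome 4), a pyrimidine nucleotide carrier, was at 4.44 and 4.37 FPKM in NanoCa and at 2.21 and 2.65 in Mock (0.66, SE 0.082, adjusted p = 0.000626). The other pyrimidine nucleotide carrier, Slc25a36, fell from 19.3 and 19.1 FPKM to 14.6 and 13.6 (-0.42), so that its level went from 8.70 and 7.20 times that of Slc25a33 in Mock to 3.30 and 3.12 times in NanoCa. Slc25a16 (chromosome 10), linked to coenzyme A supply, was at 6.23 and 6.81 FPKM in NanoCa and at 10.6 and 10.7 in Mock (-0.63, SE 0.057, adjusted p = 0.000165). Slc25a17, the cofactor carrier of the peroxisome, was also lower (-0.46). The NAD carrier Slc25a51 (-0.26) and the folate carrier Slc25a32 (-0.20) were lower, and both calls were lost with median-of-ratios scaling (-0.08 and -0.04). Slc25a32 turned to 0.01 with quantile normalization, and did not pass without NanoCa replicate 2 (-0.15) or Mock replicate 1 (-0.14). The S-adenosylmethionine carrier Slc25a26 (-0.07, adjusted p = 0.466) did not pass. Slc25a42, a coenzyme A carrier, lay under the filter with 41 reads in NanoCa and 132 in Mock, a read rate ratio of 0.386 (0.265 to 0.551), and passed as lower when no filter was set (-0.39, adjusted p = 0.00972).

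None of the 3 tested carriers known for carboxylates passed the test, and Slc25a35, an orphan grouped with them, was lower. The citrate carrier Slc25a1, which exports citrate for lipid synthesis, was at 19.9 and 19.7 FPKM in NanoCa and at 19.2 and 20.8 in Mock (-0.01, 95% interval -0.14 to 0.11, adjusted p = 0.809). With median-of-ratios scaling it passed as higher (0.16), as did 4 other members that had not passed. The dicarboxylate carrier Slc25a10 (0.03, adjusted p = 0.673) did not pass. The oxoglutarate carrier Slc25a11, partner of the aspartate-glutamate carriers in the shuttle, was at 31.5 and 34.4 FPKM in NanoCa and at 35.6 and 37.2 in Mock (-0.14, adjusted p = 0.0574) and did not pass, although its groups did not overlap. Without NanoCa replicate 2 it passed as lower (-0.20), and with median-of-ratios scaling it turned to 0.04 and did not pass (adjusted p = 0.481). Slc25a35 was lower on a small number of reads, with 53 and 81 in the NanoCa libraries against 182 and 139 (-0.49, SE 0.13, adjusted p = 0.013). At 0.606 and 0.974 FPKM in NanoCa, it met the filter only through its level in Mock, and not without Mock replicate 1. The call was lost without NanoCa replicate 1 (-0.34), with quantile normalization (-0.28) and when no filter was set (adjusted p = 0.062). Over the alternatives the adjusted p ranged from 0.000262 to 0.107. Of its exonic bases 31.3% overlap Rangrf on the opposite strand, and without a stated strand setting reads of the 2 genes cannot be told apart.

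Among carriers of amino acids and acylcarnitines, Slc25a15 (ENSMUSG00000031482, chromosome 8), the ornithine carrier of the urea cycle, changed most. It was at 2.15 and 2.38 FPKM in NanoCa and at 4.74 and 4.56 in Mock, 48.7% of Mock (-0.79, SE 0.070, adjusted p = 0.000144). Its relative Slc25a2 had 6 reads in NanoCa and 5 in Mock. Slc25a44, a branched-chain amino acid carrier, was slightly higher (0.19, adjusted p = 0.0151), a call lost without Mock replicate 1 (0.15) or NanoCa replicate 2 (0.19, adjusted p = 0.0547; range over the alternatives 0.00047 to 0.0879). The glycine carrier Slc25a38 of heme synthesis (0.16, adjusted p = 0.0634), Slc25a45 (0.08, adjusted p = 0.131) and the carnitine-acylcarnitine carrier Slc25a20 (-0.07, adjusted p = 0.423) did not pass. Slc25a38 and Slc25a45 passed as higher with median-of-ratios scaling (0.33 and 0.26). Slc25a29 and Slc25a47, neighbours on chromosome 12, had 9 and 15 reads over the NanoCa libraries against 22 and 29 over Mock, with intervals of the read rate ratio that include 1.

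Slc25a46, an outer membrane protein linked to mitochondrial shape, was at 33.7 and 32.7 FPKM in NanoCa and at 42.6 and 43.2 in Mock (-0.36, SE 0.039, adjusted p = 0.000324). The orphan Slc25a43, the neighbour of Slc25a5 on the X chromosome, was at 5.18 and 5.65 FPKM in NanoCa and at 5.90 and 5.61 in Mock (-0.08, 95% interval -0.23 to 0.08, adjusted p = 0.326). The 4 X-linked members thus stood at different shares of Mock, Slc25a5 at 59.6%, Slc25a14 at 77.3%, Slc25a43 at 94.1%, and the low Slc25a53 at 70.3% by read rate (116 reads against 205). Of Slc25a34, a relative of Slc25a35, 11 reads were found in NanoCa and 7 in Mock.

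To place the family, 9 lists of related genes were described with the same fit. The background for the counts of every list is that 21.7% of all genes tested were called higher and 49.7% lower. Carriers known under other symbols were lower in 3 of 3 tested cases, with Ucp2 at -0.53 (82.0 FPKM in NanoCa and 119 in Mock), Mtch2 at -0.41 and Mtch1 at -0.24. Of 13 genes of other mitochondrial transport, 2 were higher and 8 lower (median -0.21). The pyruvate carrier subunit Mpc1 (-0.89) and the serine transporter Sfxn1 (-0.80) fell most, and the outer membrane protein Tspo (0.94) and the channel Vdac3 (0.16) rose. Of 13 genes of the route by which carriers are imported, 4 were higher and 7 lower (median -0.19), from Timm8b (-0.59) and Timm9 (-0.33) to Timm13 (0.33) and Timm10 (0.23), small chaperones of the intermembrane space.

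The next lists hold enzymes that use what the carriers move. Of 10 shuttle and citrate enzymes, 3 were higher and 6 lower (median -0.34). Got1 (0.27) and the malic enzyme Me1 (0.76) rose, while Me2 (-0.93) and the citrate-cleaving Acly (-0.58) fell. All 9 tested genes of carnitine and fat oxidation fell (median -0.53), with Hadhb (-0.84) and Acadm (-0.77) first, beside Slc25a20, which did not pass. Of 10 amino acid and one-carbon genes, 4 were higher and 5 lower (median -0.10). Mthfd2, a folate enzyme of mitochondria, rose by 1.43 and Aldh18a1, which starts proline synthesis, by 0.68, while Glud1 (glutamate dehydrogenase) was at -0.60 and Oat, an ornithine enzyme, at -0.53. None of 11 iron-sulfur and heme genes rose and 4 fell (median -0.11), most of all Cpox (-0.65) and Hscb (-0.50).

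Of 12 markers of mitochondrial content, 2 were higher and 6 lower (median -0.13). Hspa9 (0.75) and Sod2 (0.73) rose, and Opa1 (-0.54) and Cs (-0.47) fell most. Of 16 proliferation genes, 15 fell and Pcna rose (0.48), with a median of -2.32 against -0.16 for the Slc25 members. Ccnb2 (-3.12) and Mki67 (-3.08) led. After median-of-ratios scaling (all genes 32.9% higher and 32.8% lower) every list but proliferation split differently. The import route had 4 higher and 1 lower, other transport 4 and 6, iron-sulfur and heme 3 and 4, and mitochondrial content 5 and 3. Fat oxidation had 0 and 6, shuttle and citrate enzymes 4 and 6, amino acid and one-carbon genes 5 and 4, and carriers under other symbols 0 and 2. Proliferation kept 1 higher and 15 lower. The fall of Slc25a5, a carrier of dividing cells, stood beside this larger fall, and the part of proliferation in it was not tested.

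**Figure D4:**
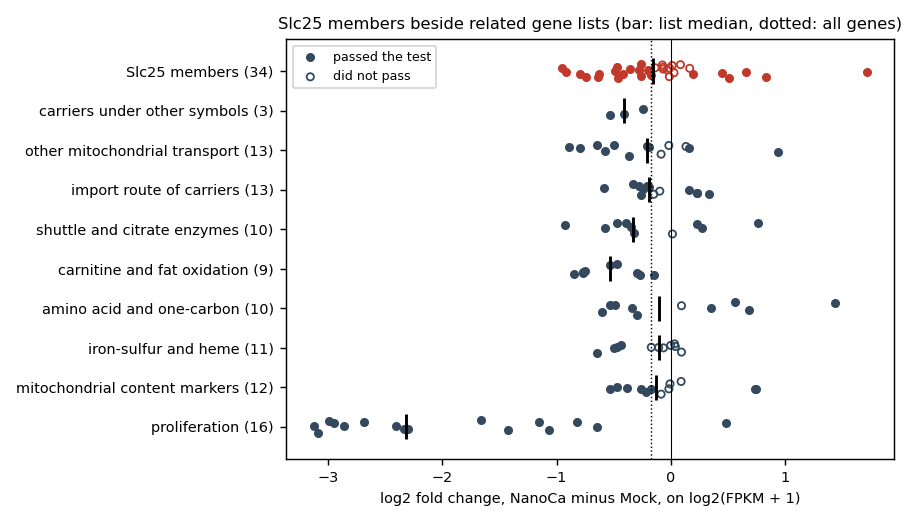
Log2 fold change (NanoCa minus Mock, on log2(FPKM + 1)) of the 34 tested Slc25 members and of the tested genes of 9 related lists, filled where the test was passed, with each list's median as a bar and that of all genes as a dotted line. The Slc25 median of -0.16 lies close to that of all genes, carnitine and fat oxidation lies below it at -0.53, and proliferation lies far below at -2.32.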

How the data were processed

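Messenger RNA was sequenced from BMDC, with 3 samples per group in the labels, and the deposited table holds FPKM values computed by the authors. GRCm39 is the build named in the labels, per the submitters' processing notes. No aligner, counter, strand setting or annotation is given in the sources used here. Replicate 3 of each group was a scaled mean of replicates 1 and 2, so all tests used the 4 other libraries.

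Tests used limma 3.58.1 in R 4.3.3 (lmFit, eBayes with a trend) on log2(FPKM + 1), without a block, for 11116 genes whose mean FPKM reached 1, two-sided, adjusted over all genes. The same code was tested on simulated data. Whole reads (tolerance 1e-06) and library totals were recovered from the FPKM steps for 23928 of 23929 genes with a value, with gene lengths matched to GENCODE vM21. Exact 95% intervals of read ratios and all read counts cover counting error only. With 2 against 2, an exact permutation test could not go below p = 0.333.

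Members and lists were chosen with earlier results of these data known. Every member is counted, and the values of 1 tested member are not reported here. Values in every library are given at least for members past the test with a log2 change of at least 0.5, the 5 most abundant members and the tested X-linked members, and of each related list the 2 largest changes past the test in each direction are named. Protein identity came from global alignments (Biopython 1.88, BLOSUM62) of the longest coding sequence per gene in GENCODE vM21. Alternatives covered scaling, pseudocount, filter, left-out replicates, all 6 columns, a replicate block, robust eBayes and limma-voom on recovered reads.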

Additional observations from a re-analysis of the deposited data

How the results depend on the processing

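Of 454 values of 33 tested members under 14 alternatives, 399 kept their direction and their side of the threshold, 20 lost the call, 13 gained one and 22 changed sign, 19 of these without passing the test on either side. The scaling mattered most. With median-of-ratios scaling, which moved the median of all genes from -0.17 to -0.01, the count was 11 members higher and 11 lower. Quantile normalization gave 10 higher, where 29.7% of all genes were called higher against 21.7% as reported. All 6 members called higher kept that call under both scalings, and 11 of the 17 called lower kept theirs with median-of-ratios and 13 with quantile normalization. What share of all genes kept a call was not computed. With median-of-ratios scaling the sign changed for Slc25a3 (0.0131), Slc25a1 (0.1645), Slc25a39 (0.1688), Slc25a12 (0.1356), Slc25a20 (0.1053), Slc25a43 (0.0840), Slc25a26 (0.0679) and Slc25a11 (0.0439). With quantile normalization it changed for Slc25a32 (0.0121), Slc25a39 (0.0668), Slc25a1 (0.1002), Slc25a12 (0.1583), Slc25a20 (0.0928), Slc25a43 (0.1367) and Slc25a26 (0.1564). Without 1 library, values of both signs were found for Slc25a10 (-0.0112 to 0.0648), Slc25a39 (-0.127 to 0.1044), Slc25a1 (-0.0679 to 0.0393), Slc25a12 (-0.0812 to 0.0169) and Slc25a20 (-0.1631 to 0.028). The cause was not tested. Leaving out 1 library gave median log2 fold changes of the tested members from -0.17 to -0.14 (all genes -0.18 to -0.15). Such fits assume that the lone library varies like the other group. The replicate block gave 6 members higher and 18 lower (all genes 22.8% and 51.2%). The numbers are not stated to pair libraries, and same-numbered deviations correlated at 0.13 across genes over 2 pairs. The block ended no call of a member and added Slc25a11 (-0.14). Passing in every alternative that tested them, the stricter filter set aside, were 15 members. Higher were Slc25a22, Slc25a25, Slc25a33, Slc25a37 and Slc25a28. Lower were Slc25a13, Slc25a23, Slc25a15, Slc25a5, Slc25a40, Slc25a16, Slc25a4, Slc25a17, Slc25a36 and Slc25a46. Of these, Slc25a23 met the mean FPKM filter only through its level in Mock. The share of all genes passing in every alternative was not computed, so the count of 15 has no background. Of 252 counts of the related lists, 17 moved by over 1.5 times. Depth limits the 9 members under the filter, from Slc25a18 with 3 reads in all to Slc25a53 with 116 in NanoCa and 205 in Mock.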
